A study of Mus musculus with 18 samples.

Results

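The clustered protocadherins are cell surface adhesion molecules encoded in 3 neighbouring gene clusters, alpha, beta and gamma. They were taken here as the protein-coding genes on chromosome 18 whose symbol is Pcdh followed by the cluster letter and an isoform number, which gave 58 of the 55414 genes in the count table. The alpha cluster held 14 of them (chr18:37063237-37320716 in GRCm39), the beta cluster 22 (chr18:37397991-37657532) and the gamma cluster 22 (chr18:37794846-37975014), and all lay on the plus strand. The set was chosen by its values: several of these genes were higher in both *Fmr1* KD and *Zfp598* KD than in Scramble KD, so every difference from Scramble KD below is a description and carries no test.

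Each alpha and gamma gene has a large first exon with its own promoter, and this exon is spliced to constant exons that the whole cluster shares. Beta genes have no constant part, and 21 of the 22 have a single exon in the annotation used, all but *Pcdhb9*. Neurons choose a few of these promoters each, with the help of CTCF, cohesin and DNA methylation, and the resulting proteins bind like partners on neighbouring cells, which lets a neuron tell its own branches from those of others. The C-type genes (*Pcdhac1*, *Pcdhac2*, *Pcdhgc3*, *Pcdhgc4* and *Pcdhgc5*) are the exception, since many neurons express them without this choice.

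Total RNA was depleted of rRNA and sequenced from mouse Neuro-2a (N2A) neuroblastoma cells 72 h after transfection with 1 of 6 siRNAs. The controls were a pair of Scramble siRNAs (neg_control in the labels), and the knockdowns used 2 siRNAs against *Fmr1* (labelled fmrp), which encodes the translational repressor FMRP, and 2 against *Zfp598* (labelled znf), which encodes a ubiquitin ligase that senses collided ribosomes and starts no-go decay. Every siRNA had 3 libraries, 18 in all, and the study pooled the 2 siRNAs of a condition. All groups were the same established line, untreated apart from the siRNA and the transfection reagent, and the study ran 3 knockdowns with each siRNA, with no statement that they were done on separate days or from separate passages, so p-values measure the spread between these libraries. The letters A and B only name the siRNAs, so siRNA A of one target has no known relation to siRNA A of another. In a bulk culture, fewer cells expressing a gene and less RNA per cell cannot be told apart.

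The libraries held 7674724 to 15414590 counts. Levels are given as CPM, counts scaled by the TMM-adjusted library total. In CPM, *Fmr1* lay at 51.1 to 68.7 with the Scramble siRNAs, at 50.2 to 74.7 with the *Zfp598* siRNAs and at 15.7 to 27.5 with its own, and *Zfp598* at 103 to 128, 91.1 to 121 and 32.2 to 48.7 with the Scramble, *Fmr1* and *Zfp598* siRNAs, so each target was low in the libraries labelled for it. The most counted feature took 15.2% of counts in *Zfp598* KD A2 and 25.8% in *Zfp598* KD A3, against 5.00% to 11.1% in the other 16 libraries. In *Fmr1* KD B1 the summed level of 9 pluripotent cell markers was 59.3 CPM against 4.28 to 10.1 CPM elsewhere, and 4 Y-linked genes summed to 11.6 CPM against 0 in 16 libraries and 0.149 CPM in *Zfp598* KD B1. Leaving out *Zfp598* KD A2 and A3 leaves A1 as the only *Zfp598* A library, which is then assumed to vary like the other groups, so values given without them set a single library against the rest. All 10 neuronal markers were detected, with a summed level of 1147 to 1738 CPM, while 7 fibroblast markers summed to 6.46 to 19.1 CPM with *Lum* at 0 in every library.

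The counting fixed what could be seen of each gene. *Pcdhga10* had 0 counts in all 18 libraries, and by the GENCODE M39 annotation its first exon lies wholly under exons of the antisense gene *Gm26672*. The readthrough genes *Pcdha4b*, *Gm38666* and *Gm37388*, which join exons of other genes, also had 0 counts. Levels per kilobase were therefore scaled to the exon bases that no other annotated gene covers, which leaves out the constant exons. For *Pcdha4* this was 13.9% of the first exon, for *Pcdha11* 22.9%, for *Pcdhb12* 36.5%, for *Pcdhga11* 47.4% and for *Pcdhgc3* 53.9%. Similar sequence is a further limit, since more than 10% of 50-base windows recur in another member for 12 alpha, 2 beta and 4 gamma genes, and strand use is not stated, so reads of a member and of its antisense partner cannot be told apart. The 4 letters CGCT, known from the shared element of these promoters, occurred on either strand in a 300-base promoter window of 55 of the 58 genes (94.8%), all but *Pcdhac2*, *Pcdhb22* and *Pcdhga12*, and in 13601 of 21757 protein-coding genes (62.5%).

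In the Scramble KD libraries the locus was led by a few genes of the alpha cluster. Per kilobase of unshared exon, *Pcdhac2*, a C-type gene known for the spacing of serotonergic axons, was the highest at 18.8 ± 4.25 CPM per kb (SD, n = 6). *Pcdha9* followed at 11.9 ± 4.42 and *Pcdha8* at 8.84 ± 3.31 CPM per kb, and the ranges of these neighbours overlapped (14.1 to 23.3, 7.70 to 18.7 and 5.60 to 14.4). The highest gamma gene was *Pcdhgb1* at 5.66 ± 1.15 CPM per kb, then *Pcdhgb2* at 4.58 ± 0.346. The highest beta gene was *Pcdhb11* at 4.37 ± 0.829 CPM per kb. The C-type genes of the gamma cluster were spread out, with *Pcdhgc3* at 4.30 ± 0.671, *Pcdhgc4* at 0.974 ± 0.138 and *Pcdhgc5* at 0.523 ± 0.151 CPM per kb. At the low end, *Pcdhga1* lay at 0.170 ± 0.0792 CPM per kb, and *Pcdhb1* had too few counts to be tested, which left 56 members in every fit. Of the 58, 16 averaged fewer than 50 counts a library.

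**Figure D1:**
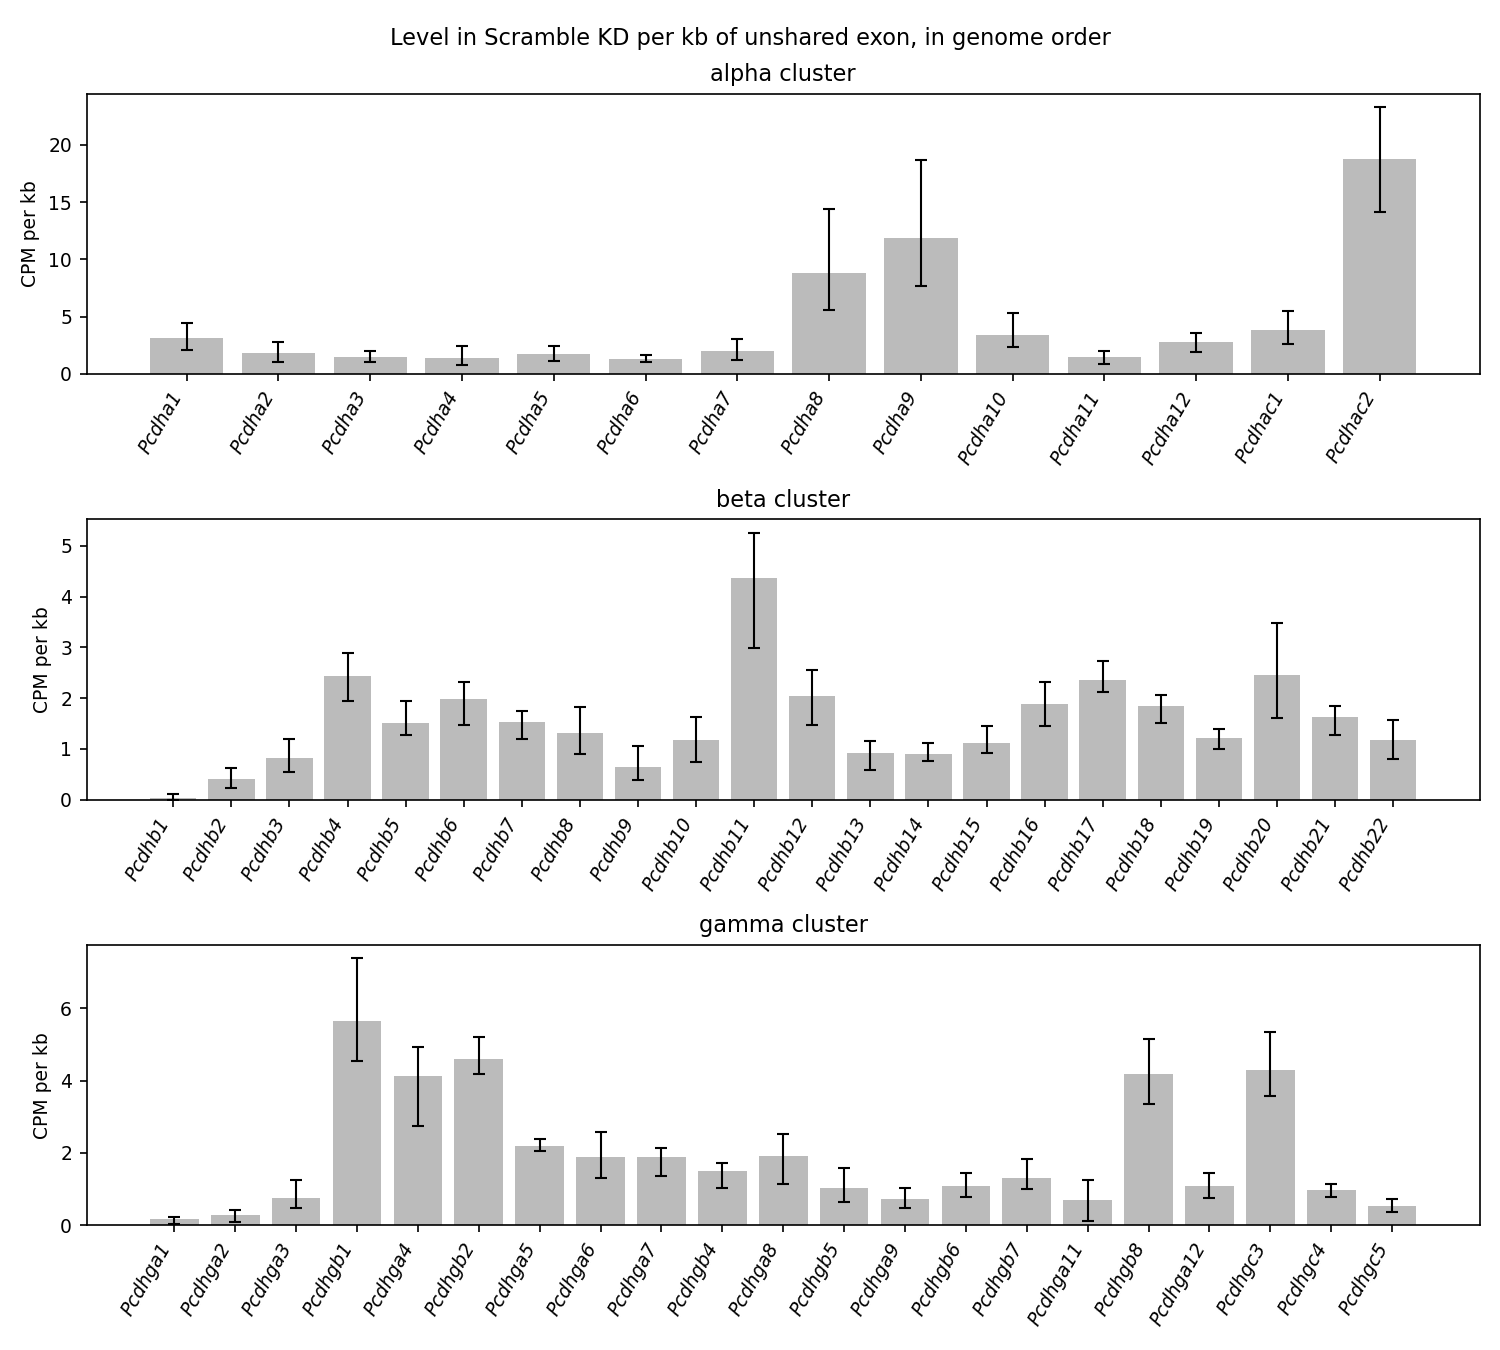
Level of each clustered protocadherin except *Pcdhga10* in Scramble KD, in CPM per kilobase of exon that no other annotated gene covers, in genome order within each cluster; bars are means and whiskers the lowest and highest of 6 libraries. *Pcdhac2*, *Pcdha9* and *Pcdha8* stand above the others, with *Pcdhac2* at 18.8 CPM per kb, and each panel has its own scale.

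The clusters did not share one order of the siRNA groups. Summed over its 14 genes, the alpha cluster lay at 226, 184 and 200 CPM in Scramble A, 121, 125 and 121 in Scramble B, 145, 136 and 160 in *Fmr1* A, 170, 177 and 190 in *Fmr1* B, 164, 190 and 231 in *Zfp598* A, and 193, 176 and 184 in *Zfp598* B. Scramble B was thus below every other group for alpha, and *Zfp598* A and B overlapped. This overlap rested on *Zfp598* KD A2 and A3, the libraries in which 1 feature took a large share of counts. *Zfp598* KD A1, at 164 CPM, lay below every *Zfp598* B library. The beta cluster lay at 148, 163 and 150 CPM in Scramble A, 127, 117 and 134 in Scramble B, 171, 171 and 171 in *Fmr1* A, 194, 193 and 195 in *Fmr1* B, 165, 156 and 164 in *Zfp598* A, and 281, 249 and 266 in *Zfp598* B. Here *Zfp598* B stood alone at the top, 1.64 times *Zfp598* A and 2.11 times Scramble B. The gamma cluster lay at 107, 119 and 116 CPM in Scramble A, 94.7, 88.7 and 97.2 in Scramble B, 143, 137 and 135 in *Fmr1* A, 155, 143 and 138 in *Fmr1* B, 95.6, 82.9 and 98.7 in *Zfp598* A, and 162, 148 and 145 in *Zfp598* B. For gamma, both *Fmr1* groups and *Zfp598* B lay above the other groups, with *Fmr1* B overlapping both of the others, and *Zfp598* A overlapped Scramble B at the bottom.

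**Figure D2:**
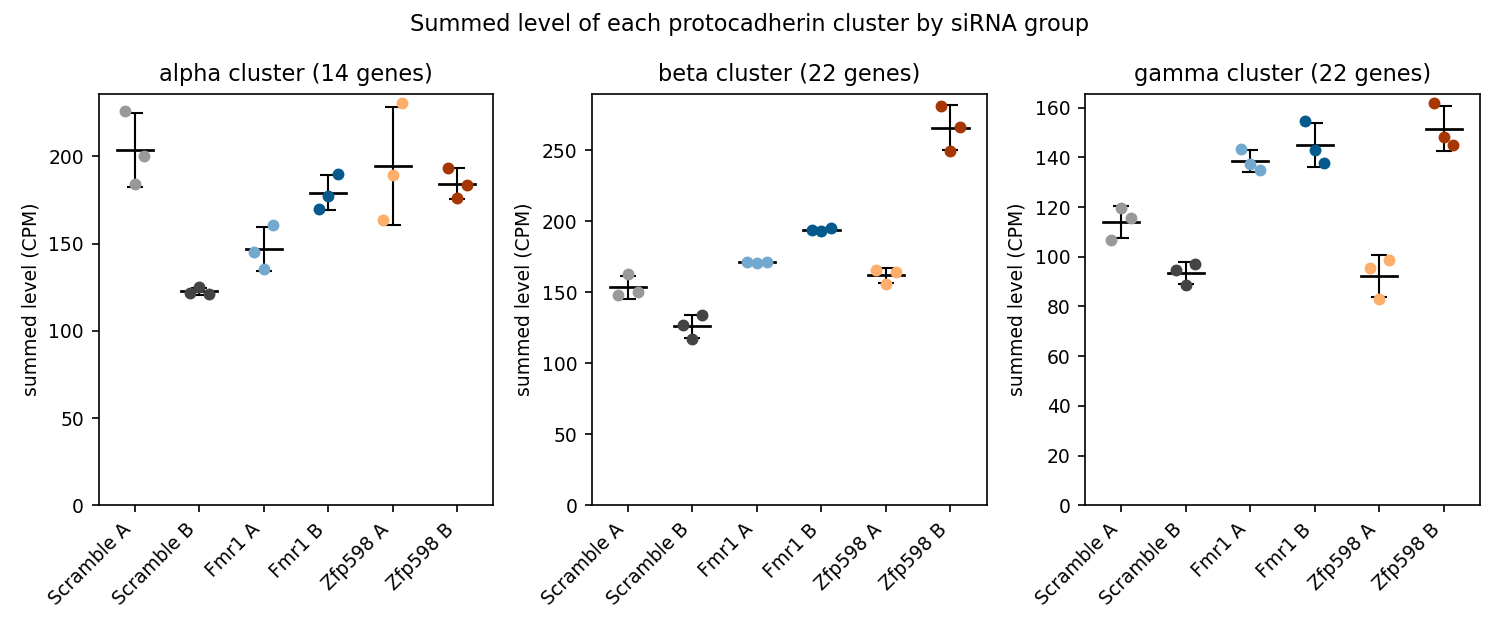
Summed level in CPM of the 14 alpha, 22 beta and 22 gamma genes in each library, by siRNA group, with the mean and SD of 3 libraries. In the beta panel the *Zfp598* B libraries (249 to 281 CPM) lie above all others, and in the alpha panel the Scramble B libraries (121 to 125 CPM) lie below all others.

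Against Scramble KD, the contrasts by which the genes were selected, most members were a little higher in each pooled knockdown and few were 2-fold higher. In *Fmr1* KD, 53 of the 56 members had a log2 fold change above 0 (50.3% of the 17901 genes tested did), with a median of 0.47 against 0.00 over all genes. Over 2-fold higher were 3 members (213 of all 17901 genes), *Pcdhga11* at 1.25, *Pcdhga1* at 1.17 and *Pcdhga2* at 1.09, all with few counts. In *Zfp598* KD, 49 of 56 were above 0 (51.6% of all genes) and the median was 0.54 against 0.01. Here 2 members were over 2-fold higher (154 of all 17901 genes), *Pcdha3* and *Pcdhb2*, each at 1.03. No member was over 2-fold higher in both pooled knockdowns. The most abundant member went the other way: the log2 fold change of *Pcdhac2* was -0.60 in pooled *Fmr1* KD and -0.44 in pooled *Zfp598* KD. Its mean level was nonetheless higher in *Fmr1* B than in Scramble B. These contrasts share the Scramble KD libraries. Without *Zfp598* KD A2 and A3 the *Zfp598* KD median was 0.69 and 10 members were over 2-fold higher. That pool holds all *Zfp598* B libraries but only A1 of *Zfp598* A, so siRNA B weighs more in it. Without *Fmr1* KD B1 the *Fmr1* KD median was 0.48.

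Taken per siRNA against the Scramble siRNA of the same letter, the B siRNAs had the larger medians, and again these are descriptions. The references differed as well: over the members, the median log2 difference of B from A was -0.44 for Scramble, 0.07 for *Fmr1* and 0.76 for *Zfp598*. For *Fmr1* A the median log2 fold change over the members was 0.31 and 1 was called lower (2.49% of all genes were), *Pcdhac2* at -1.56. For *Fmr1* B the median was 0.68, all 56 tested members were above 0, and 9 were called higher (3.04% of all genes), among them *Pcdha3* at 1.15, *Pcdhb2* at 1.10 and *Pcdhga11* at 1.81. *Zfp598* A had a median of -0.09 and 1 member called lower (0.765% of all genes), *Pcdhga3* at -1.38. With A1 as the only *Zfp598* A library the median was -0.17, 16 of 56 members were above 0 and 0 were called. *Zfp598* B had a median of 1.11, 52 of 56 above 0, and 33 called higher (2.68% of all genes): 9 alpha, 14 beta and 10 gamma. The 4 below 0 were C-type genes, *Pcdhac2* at -0.57, *Pcdhgc3* at -0.50, *Pcdhgc5* at -0.14 and *Pcdhgc4* at -0.09. Of the 6 siRNA groups, *Zfp598* B had the highest mean for 45 of 56 members (10 alpha, 21 beta and 14 gamma; 18.5% of all genes) and Scramble B the lowest for 37 (12 alpha, 16 beta and 9 gamma; 16.5% of all genes). For 19 members, 14 of them beta genes, the 3 *Zfp598* B libraries lay above all 15 others (4.29% of all genes).

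The remaining comparisons were not themselves used in choosing the genes, although the interactions among them are built from differences from Scramble KD. They were tested in edgeR by quasi-likelihood, with p-values adjusted by Benjamini-Hochberg over the 17901 genes. Called genes are those with an adjusted p under 0.05 that differed over 2-fold. The first asks whether the knockdowns differ from each other. With the siRNAs of each target pooled, the knockdowns lay close to each other. The median log2 difference of *Fmr1* KD from *Zfp598* KD over the members was -0.06 (-0.01 over all genes). By edgeR or DESeq2 0 members were called (1.02% of all genes were), with 4 higher and 3 lower at an unadjusted p under 0.05. Without *Zfp598* KD B1 or B2, 1 member was called, and without B1 the median was 0.0048. At the adjusted p alone, 2.27% of all genes were higher in *Fmr1* KD, so the 1 member of 56 that passed lay near that share. This member was the C-type gene *Pcdhgc3*, whose protein is known to bind Axin1 and dampen Wnt signalling. It lay at 7.17, 9.98, 9.70, 10.5, 11.3 and 9.75 CPM in *Fmr1* KD and at 6.39, 5.65, 6.76, 6.03, 6.40 and 5.45 CPM in *Zfp598* KD, with no overlap. Its log2 difference was 0.67 ± 0.135 (SE), with an adjusted p of 0.00587 in edgeR's quasi-likelihood test. All 21 beta genes tested had a difference below 0, from -0.53 to -0.01, and none of them passed the adjusted p. The pooled *Zfp598* KD joins 2 unlike siRNAs. Mean summed beta levels were 162 CPM in *Zfp598* A and 266 in *Zfp598* B, either side of 171 in *Fmr1* A and 194 in *Fmr1* B. Gamma sums, at 92.4, 152, 138 and 145 CPM in the same order, lay likewise. Alpha sums, at 195, 184, 147 and 179 CPM, did not.

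The pair of Scramble siRNAs differed from each other at this locus. Members were mostly lower in Scramble B than in Scramble A: the median log2 difference was -0.44 (0.00 over all genes), 4 of 56 were above 0, and 21 were lower at an adjusted p under 0.05 in edgeR's quasi-likelihood test, 11 alpha, 6 beta and 4 gamma genes (12.2% of all genes were lower). Libraries of the groups did not overlap for 30 members that were lower in B (19.3% of all genes). No member met the 2-fold criterion as well, in edgeR or DESeq2 (3.61% of all genes did, in either direction), though 28 were lower at an unadjusted p under 0.05. Without Scramble KD A2 there were 2 called lower and without Scramble KD B3 there was 1. *Pcdha9* lay at 46.3, 31.1 and 37.7 CPM in Scramble A and 20.6, 21.7 and 19.1 CPM in Scramble B, a log2 difference of -0.90 ± 0.176 (adjusted p = 0.000838, edgeR). *Pcdha8*, its neighbour, lay at 35.8, 21.3 and 26.6 against 13.9, 14.96 and 18.8 CPM, a log2 difference of -0.81 ± 0.160 (adjusted p = 0.000991, edgeR). *Pcdhac2* lay at 69.1, 73.2 and 70.9 against 49.0, 47.5 and 44.4 CPM, a log2 difference of -0.60 ± 0.107 (adjusted p = 0.000369, edgeR). All 3 genes were lower in every Scramble B library than in any Scramble A library. The neuronal markers moved with this difference, summing to 1521 to 1738 CPM in Scramble A and 1147 to 1288 CPM in Scramble B, with 4 of the 7 tested lower at an adjusted p under 0.05 in edgeR (*Tubb3*, *Map2*, *Stmn2* and *Gap43*, named after their values were seen). Their part in the result was not tested.

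Between the *Fmr1* siRNAs, a single member was called, *Pcdhac2*. It lay at 24.8, 23.6 and 23.7 CPM in *Fmr1* A and at 53.6, 54.9 and 52.2 CPM in *Fmr1* B. Both sets were tight and far apart, with a log2 difference of 1.16 ± 0.111 and an adjusted p of 2.50e-07 in edgeR's quasi-likelihood test (3.23% of all genes were called higher). As a share of all alpha counts, *Pcdhac2* made up 16.4% ± 1.43 in *Fmr1* A and 30.0% ± 2.20 in *Fmr1* B (SD, n = 3). Together with *Pcdhac2*, 2 beta genes passed the adjusted p alone, *Pcdhb4* at 0.50 ± 0.142 (adjusted p = 0.0132, edgeR) and *Pcdhb11* at 0.43 ± 0.125 (adjusted p = 0.0149, edgeR), while 13.3% of all genes were higher at that threshold. Both counts, 1 of 56 called and 3 of 56 at the adjusted p, lay below the shares of genes at large. The summed level of the ordinary alpha genes was nearly equal: *Pcdha1* to *Pcdha12* summed to 110, 104 and 126 CPM in *Fmr1* A and 105, 111 and 124 CPM in *Fmr1* B, a ratio of 1.00. The median log2 difference of all 56 members was 0.07. Leaving out *Fmr1* KD B1, the library with the pluripotent cell and Y-linked counts, gave a median of 0.08 and the same number of calls, 1.

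**Figure D3:**
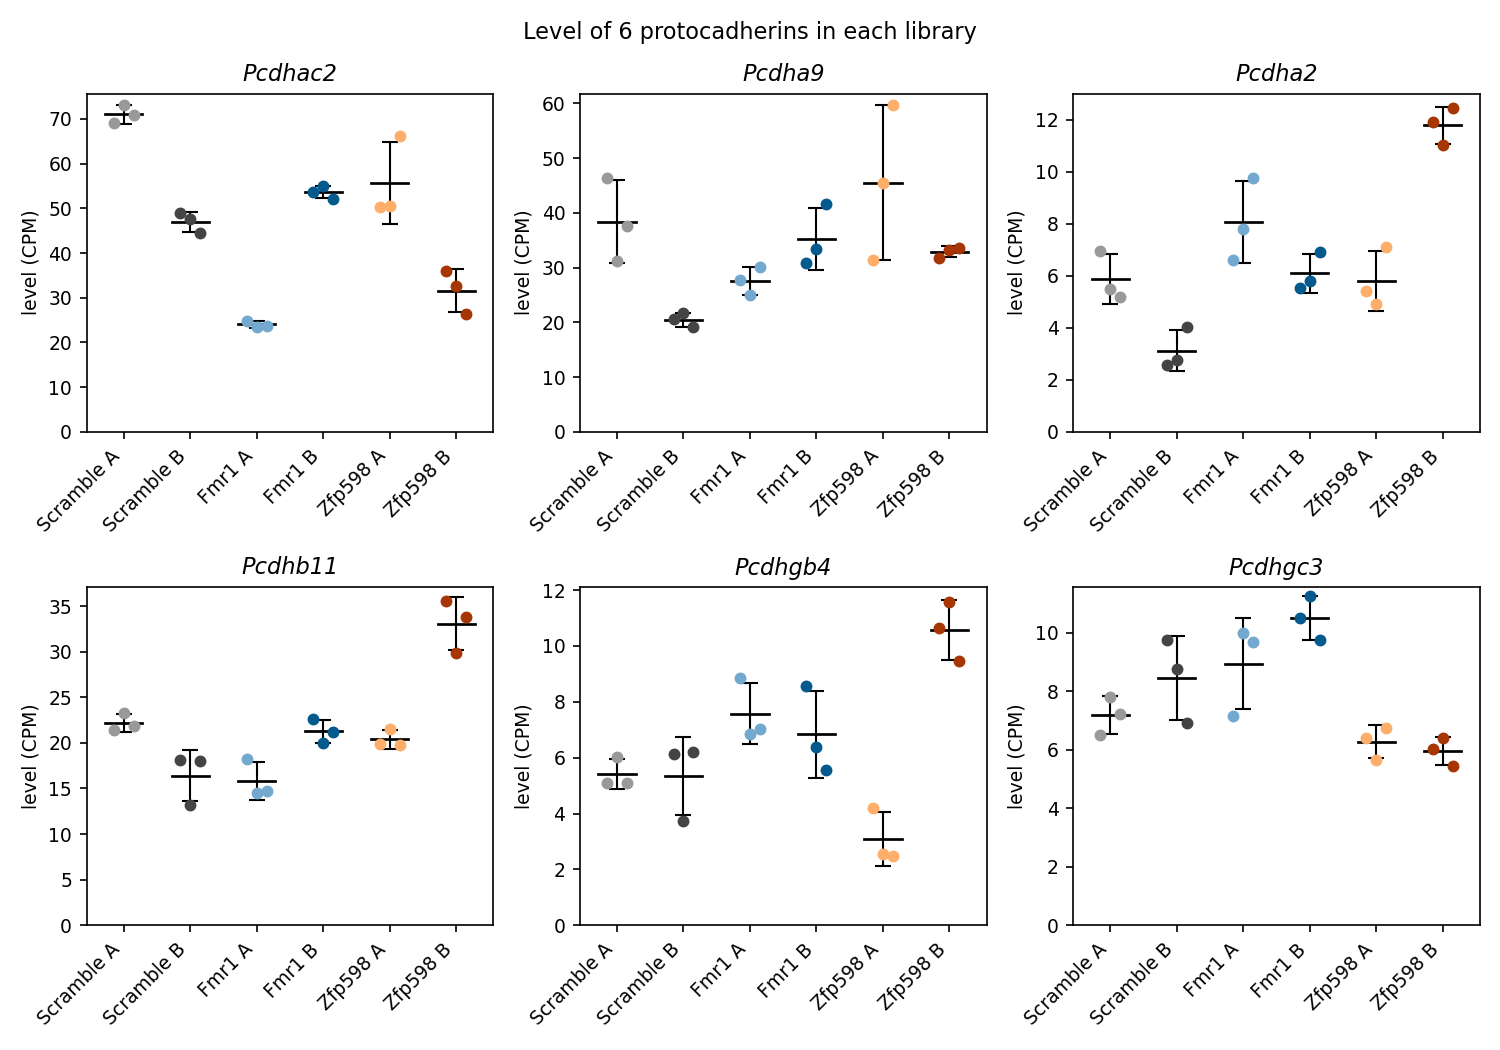
Level in CPM of 6 protocadherins in each of the 18 libraries, by siRNA group, with the mean and SD of 3 libraries. *Pcdhac2* is lowest in *Fmr1* A (23.6 to 24.8 CPM), *Pcdha2*, *Pcdhb11* and *Pcdhgb4* are highest in *Zfp598* B, and *Pcdhgc3* is low in both *Zfp598* groups.

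Between the *Zfp598* siRNAs the locus differed widely. In *Zfp598* B, 37 of 56 members were higher than in *Zfp598* A at an adjusted p under 0.05 in edgeR's quasi-likelihood test, 6 alpha, 15 beta and 16 gamma genes (15.6% of all genes), and 13 were called higher (3.26% of all genes). The median log2 difference was 0.76 against -0.01 over all genes, and libraries did not overlap for 36 members that were higher (19.7% of all genes). One member was lower at the adjusted p (3524 of the 17901 genes were), *Pcdhac2*, at 50.3, 50.5 and 66.2 CPM in *Zfp598* A and 35.9, 32.6 and 26.3 CPM in *Zfp598* B. Its log2 difference was -0.80 ± 0.112 (adjusted p = 2.11e-05, edgeR). Libraries did not overlap for 2 members that were lower, *Pcdhac2* and *Pcdha8*.

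Among the alpha genes, *Pcdha2* lay at 5.41, 4.91 and 7.12 CPM in *Zfp598* A and 11.9, 11.0 and 12.4 CPM in *Zfp598* B, a log2 difference of 1.05 ± 0.197 (adjusted p = 0.000400, edgeR). *Pcdha11*, the other alpha gene called, rose from 0.902, 1.17 and 1.07 to 3.87, 2.64 and 2.13 CPM, by 1.48 ± 0.350 (adjusted p = 0.00275, edgeR). Every *Zfp598* B library was above every *Zfp598* A library for both. The most abundant ordinary alpha genes did not pass the test: *Pcdha9* lay at 31.4, 45.4 and 59.8 against 31.7, 33.3 and 33.6 CPM (-0.45 ± 0.176, adjusted p = 0.0537, edgeR), and *Pcdha8* at 25.1, 25.4 and 29.7 against 21.2, 20.9 and 22.1 CPM (-0.31 ± 0.162, adjusted p = 0.142, edgeR). Across the 14 alpha genes, the higher a gene's level per kilobase in Scramble KD, the lower its *Zfp598* B minus A difference (Pearson's r = -0.88, Spearman's rho = -0.82) and the higher its *Fmr1* B minus A difference (r = 0.91, rho = 0.82). For the 21 beta genes the same values were r = -0.15 and 0.60, and for the 21 gamma genes -0.42 and 0.12. These are descriptions over genes that share libraries and depth, and *Pcdhac2* lies at the end of each alpha relation. They come from the fit to all libraries and were not computed without *Zfp598* KD A2 and A3. In A1 alone *Pcdha9*, at 31.4 CPM, lay close to its *Zfp598* B libraries, while *Pcdha8*, at 25.1 CPM, lay above its own.

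All 21 beta genes tested had a difference above 0, and 15 passed the adjusted p. Called genes were *Pcdhb10* at 1.73 ± 0.306, *Pcdhb6* at 1.17 ± 0.185, *Pcdhb3* at 1.15 ± 0.197, *Pcdhb9* at 1.08 ± 0.237 and *Pcdhb14* at 1.02 ± 0.201 on the log2 scale. *Pcdhb10* lay at 3.83, 1.71 and 1.25 CPM in *Zfp598* A and 8.49, 9.59 and 6.64 CPM in *Zfp598* B. *Pcdhb11*, the most abundant beta gene, was higher by less than 2-fold, at 19.8, 21.5 and 19.7 against 35.5, 29.9 and 33.8 CPM (0.70 ± 0.125, adjusted p = 0.000276, edgeR). Neither gene had overlapping groups. *Pcdhb16*, *Pcdhb18* and *Pcdhb19*, also among the most abundant beta genes, rose by 0.79 ± 0.178, 0.85 ± 0.165 and 0.69 ± 0.151 on the log2 scale at adjusted p from 0.000569 to 0.00190 in edgeR's test, and *Pcdhb17* was at 0.26 ± 0.133 (adjusted p = 0.139, edgeR).

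Gamma genes split by type. Of the a and b types, 16 of 18 tested were higher at an adjusted p under 0.05 in edgeR and 6 were called: *Pcdhga1*, *Pcdhga2*, *Pcdhga3*, *Pcdhgb4*, *Pcdhga9* and *Pcdhga11*. *Pcdhgb4* lay at 4.21, 2.56 and 2.49 CPM in *Zfp598* A and 10.6, 11.6 and 9.46 CPM in *Zfp598* B, a log2 difference of 1.71 ± 0.238 (adjusted p = 2.11e-05, edgeR). *Pcdhga9* lay at 2.26, 1.28 and 0.889 against 4.39, 4.64 and 5.28 CPM, a difference of 1.57 ± 0.281 (adjusted p = 0.000274, edgeR). Groups of both genes were well separated. The 4 other calls rested on few counts: *Pcdhga1* had 0, 6 and 0 counts in *Zfp598* A and 24, 18 and 8 in *Zfp598* B (2.56 ± 0.764), and *Pcdhga2* (1.69 ± 0.461), *Pcdhga11* (1.81 ± 0.514) and *Pcdhga3* (1.24 ± 0.406) had at most 43 counts in any of these 6 libraries. None of the 3 C-type genes passed: *Pcdhgc3* was at -0.06 ± 0.177 (adjusted p = 0.812, edgeR), *Pcdhgc4*, needed for the survival of neurons, at -0.31 ± 0.207 (adjusted p = 0.254, edgeR) and *Pcdhgc5* at 0.05 ± 0.317 (adjusted p = 0.924, edgeR). The a and b types together summed to 83.1, 71.2 and 85.6 CPM in *Zfp598* A and 150, 137 and 133 CPM in *Zfp598* B, while the C types summed to 12.5, 11.6 and 13.2 against 12.2, 10.8 and 11.3 CPM.

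*Zfp598* A holds the libraries A2 and A3, in which 1 feature took a large share of counts. With A1 as the only *Zfp598* A library, and the spread taken from the other groups, 15 members were called higher and the median log2 difference was 0.77, with 9 of the 13 calls above among the 15. Without *Zfp598* KD B1, 8 were called. Of the 13, *Pcdha11*, *Pcdhb3*, *Pcdhb6*, *Pcdhb10*, *Pcdhgb4* and *Pcdhga9* were called under every setting tried. The neuronal markers summed to 1396 to 1568 CPM in *Zfp598* A and 1188 to 1320 CPM in *Zfp598* B. Over the 7 tested, however, the median log2 difference was 0.0051, with 0 higher and 2 lower at an unadjusted p under 0.05. The part of these markers in the result was not tested.

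**Figure D4:**
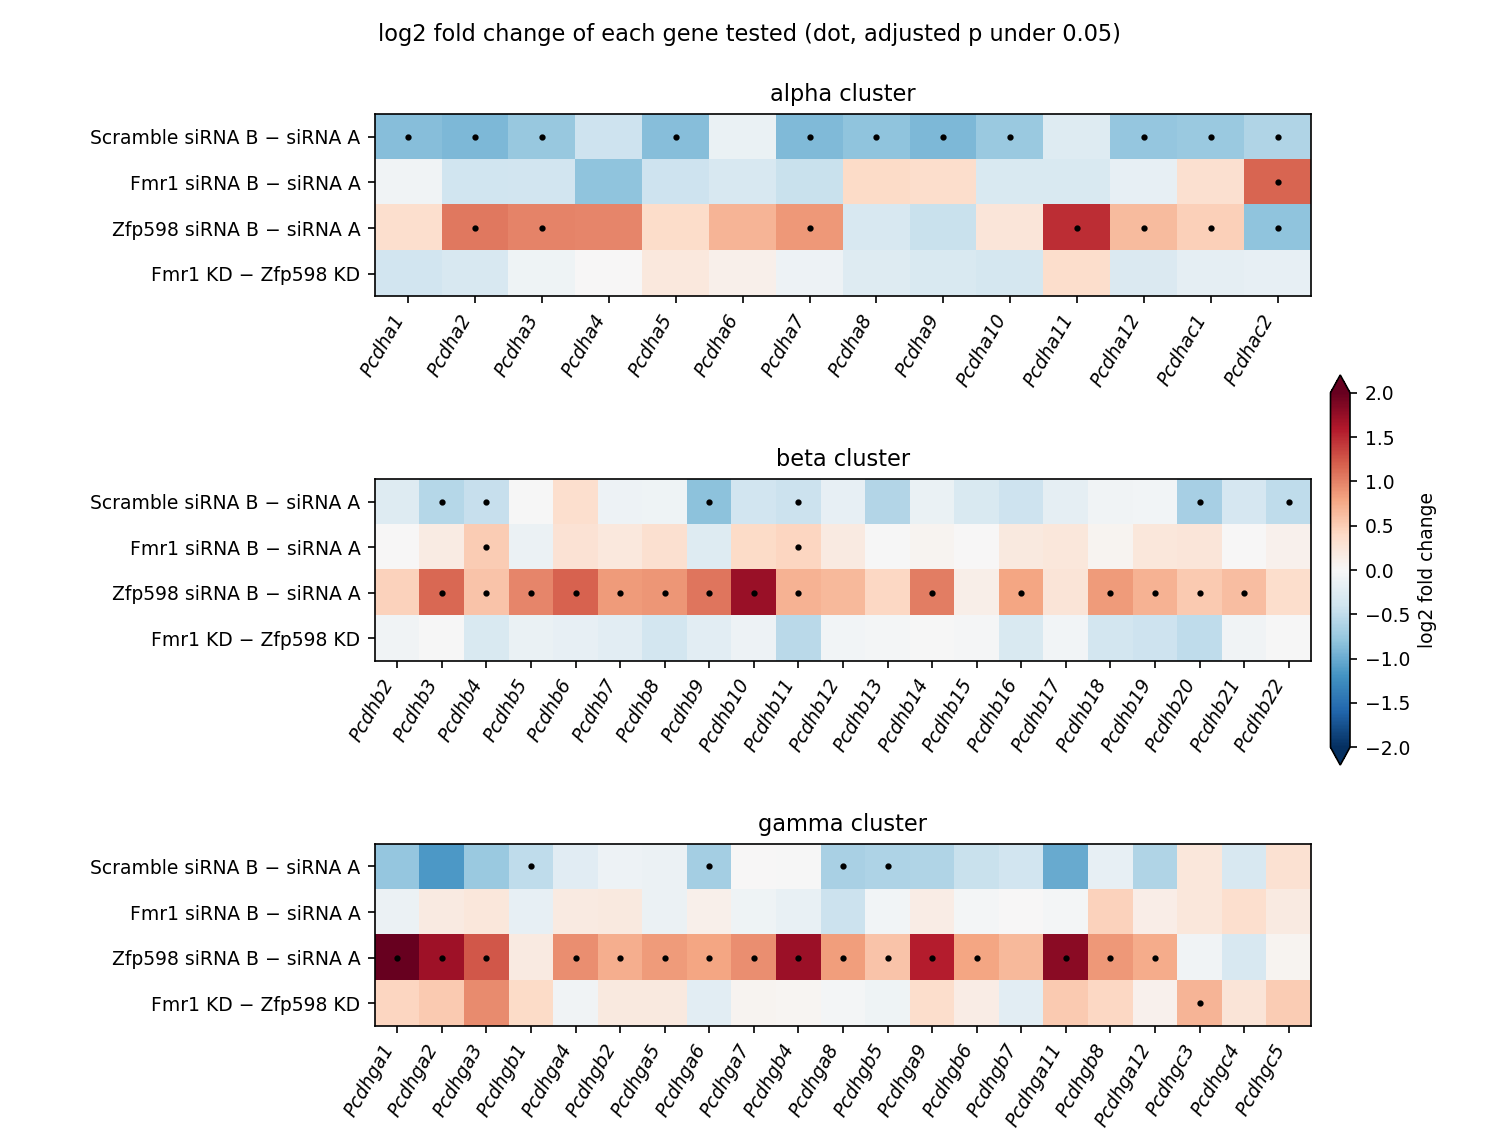
Log2 fold change of each of the 56 tested members, in genome order, in the 4 comparisons that were not used to choose them; the colour scale ends at 2 in either direction and a dot marks an adjusted p under 0.05 in edgeR's quasi-likelihood test. Blue in the Scramble row and red in the *Zfp598* row cover most columns, *Pcdhac2* alone is dark red in the *Fmr1* row, and the 3 gamma C types stay pale in the *Zfp598* row.

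Whether the knockdown differed from its control by the same amount for siRNA A and siRNA B was tested as an interaction, (KD B minus Scramble B) minus (KD A minus Scramble A). Pairing by letter is a convention, and both interactions contain the same Scramble B minus A difference, so they are not independent of each other. Each is also built from differences from Scramble KD, by which the genes were chosen, so its p-values may not be free of that choice. For *Fmr1* the median interaction over the members was 0.43 on the log2 scale (-0.01 over all genes) and 4 of the 56 members were called, all alpha genes. Of all genes, 5.36% were called higher and 7.11% in either direction, so the count of members was near that of genes at large. These were the 3 most abundant members and the other alpha C-type gene: *Pcdhac2* at 1.75 ± 0.154 (adjusted p = 1.23e-07, edgeR), *Pcdha9* at 1.26 ± 0.247 (adjusted p = 0.000849, edgeR), *Pcdha8* at 1.19 ± 0.226 (adjusted p = 0.000614, edgeR) and *Pcdhac1* at 1.07 ± 0.220 (adjusted p = 0.00135, edgeR). Without Scramble KD A1, *Pcdha8* was at 0.99 and *Pcdhac1* at 0.97, which left 2 calls, and without *Fmr1* KD B1 there were 4. *Pcdhac1* lay at 14.1, 10.3 and 12.4 CPM in Scramble A, 7.83, 7.44 and 6.58 in Scramble B, 10.7, 8.28 and 10.7 in *Fmr1* A, and 11.7, 11.8 and 13.6 in *Fmr1* B. For this gene as for *Pcdha9*, Scramble A was the higher Scramble group and *Fmr1* B the higher *Fmr1* group.

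For *Zfp598* the interaction was broad. The median was 1.08 (-0.02 over all genes), 43 of 56 members were above 0 at an adjusted p under 0.05 in edgeR's quasi-likelihood test (9 alpha, 17 beta and 17 gamma; 10.1% of all genes), and 29 were called higher, 8 alpha, 8 beta and 13 gamma genes (3.76% of all genes). In the alpha cluster the called genes ran from *Pcdha1* at 1.18 ± 0.251 and *Pcdha5* at 1.21 ± 0.289 through *Pcdhac1* at 1.23 ± 0.225 and *Pcdha12* at 1.40 ± 0.235 to *Pcdha3*, *Pcdha7* and *Pcdha11*, each at 1.74, and *Pcdha2* at 1.95 ± 0.286. *Pcdha2* lay at 6.96, 5.50 and 5.17 CPM in Scramble A, 2.57, 2.77 and 4.03 in Scramble B, and at 4.91 to 7.12 and 11.0 to 12.4 CPM in *Zfp598* A and B. It was thus lowest in Scramble B and highest in *Zfp598* B. *Pcdhac2* was the lowest of the alpha cluster at -0.21 ± 0.155 (adjusted p = 0.378, edgeR).

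The beta genes called in the *Zfp598* interaction were *Pcdhb10* at 2.11 ± 0.428, *Pcdhb9* at 1.89 ± 0.341, *Pcdhb3* at 1.72 ± 0.285, *Pcdhb16* at 1.21 ± 0.253, *Pcdhb20* at 1.19 ± 0.238, *Pcdhb14* at 1.15 ± 0.279, *Pcdhb11* at 1.13 ± 0.177 and *Pcdhb4* at 1.02 ± 0.206. *Pcdhb4* lay at 10.6, 10.7 and 10.3 CPM in Scramble A, 7.50, 7.22 and 8.25 in Scramble B, 12.5, 9.38 and 8.89 in *Zfp598* A, and 16.7, 14.4 and 15.3 in *Zfp598* B, so that neither pair overlapped. The gamma genes called were *Pcdhga1*, *Pcdhga2* and *Pcdhga11*, between 2.82 and 3.33 with SEs of 0.642 to 1.04 from few counts, *Pcdhga9* at 2.17 ± 0.384, *Pcdhga3* at 1.98 ± 0.531, *Pcdhgb4* at 1.72 ± 0.326, *Pcdhga8* at 1.48 ± 0.295, *Pcdhga6* at 1.46 ± 0.250, and *Pcdhga12*, *Pcdhgb6*, *Pcdhgb5*, *Pcdhga4* and *Pcdhgb8* between 1.03 and 1.34. *Pcdhgc3*, *Pcdhgc4* and *Pcdhgc5* were at -0.29 ± 0.238, 0.00 ± 0.284 and -0.26 ± 0.433, and none of these passed. With A1 as the only *Zfp598* A library, and the spread taken from the other groups, 33 members were called, 26 of them among the 29, and the median was 1.20.

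**Figure D5:**
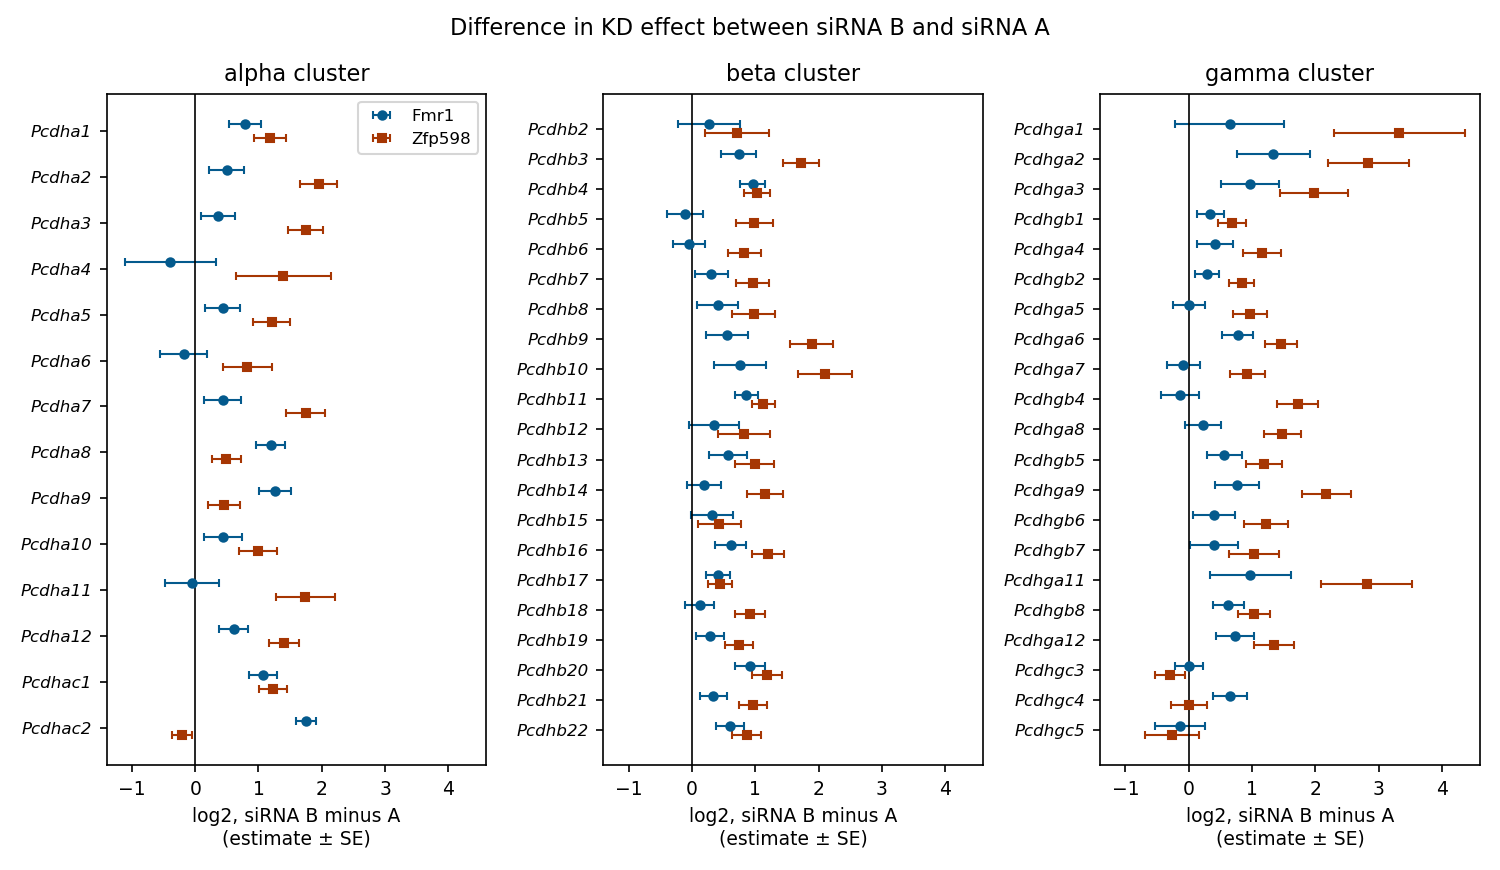
Difference between the knockdown effects of siRNA B and siRNA A on the log2 scale, estimate and SE, for *Fmr1* (circles) and *Zfp598* (squares), for each of the 56 tested members in genome order. For *Fmr1* the largest value is *Pcdhac2* at 1.75, for *Zfp598* most members lie near 1 or above, and *Pcdhac2* and the gamma C types lie near 0 for *Zfp598*.

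No gene was called higher between the *Zfp598* siRNAs among the other protocadherins or the protein-coding neighbours on chromosome 18 (3.26% of all genes were). In lists of 4 and 29 tested genes, 0 calls lie near that share. Of 12 protocadherins outside the clusters, 4 had enough counts to be tested, and *Pcdh1*, the main one, lay at 349 to 724 CPM. None of the 4 was called between the *Zfp598* siRNAs by edgeR, with 0 higher and 1 lower at an unadjusted p under 0.05, while *Pcdh15*, a hair cell tip-link protein, was lower in Scramble B than A (-1.10 on the log2 scale, adjusted p = 0.000365, edgeR) and had an *Fmr1* interaction of 1.44 (adjusted p = 0.000904, edgeR), and *Pcdh17* was higher in *Fmr1* B than A (1.29, adjusted p = 0.0101, edgeR). *Pcdh15* was also at -1.02 in pooled *Zfp598* KD (adjusted p = 0.0342, edgeR), and at -1.06 in *Fmr1* A and -1.33 in *Zfp598* A against Scramble A, and neither *Zfp598* value was called without A2 and A3. Of 29 tested protein-coding neighbours that lie between the clusters or within 500 kb of the locus, 0 were called higher (5 at an unadjusted p under 0.05) and 3 lower between the *Zfp598* siRNAs by edgeR, *Rell2* at -1.26, *Ndufa2* at -1.26 and *Hbegf* at -1.07, with a median of -0.25 (4.31% of all genes were called lower). With A1 as the only *Zfp598* A library none of the 3 was called and the median was -0.06. *Taf7*, a general transcription factor subunit gene that sits between the beta and gamma clusters, lay at 22.2, 31.6 and 33.3 CPM in *Zfp598* A and 27.3, 27.3 and 32.5 CPM in *Zfp598* B (0.02 ± 0.170, adjusted p = 0.948, edgeR). Its neighbour *Slc25a2* was at -0.35 ± 0.336 (adjusted p = 0.449, edgeR). In the interactions *Hbegf* was at -1.47 and *Dele1* at -1.01 for *Zfp598*, and *Gnpda1* at -1.19 for *Fmr1*. *Slc4a9* was at 1.55 in *Fmr1* B and *Dnd1* at 1.07 in *Zfp598* B, each against Scramble B.

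Noncoding genes inside the locus, a list added after the data were seen, were also higher in *Zfp598* B. Of 22, 13 were tested, and between the *Zfp598* siRNAs 6 were called higher and 0 lower, with a median of 0.90 (3.26% of all genes were called higher and 4.31% lower). The 6 were *3222401L13Rik* at 1.94, *Gm37165* at 1.87, *Gm53048* at 1.79, *Gm37446* at 1.73, *Gm37751* at 1.33 and *Gm19035* at 1.11. With A1 as the only *Zfp598* A library 2 of the 6 were called, *3222401L13Rik* and *Gm53048*, and the median was 0.79. *Gm53048* lay at 2.33, 0.640 and 1.60 CPM in *Zfp598* A and 5.14, 6.64 and 4.77 CPM in *Zfp598* B. Of all genes, 3.76% were called higher in the *Zfp598* interaction. In the *Zfp598* interaction *3222401L13Rik* was at 2.58, *Gm37165* at 2.06, *Gm53048* at 1.75, *Gm37751* at 1.41, *Gm10545* at 1.12 and *Gm36858* at 1.00, of which *3222401L13Rik* was called without A2 and A3. Some of these genes lie antisense to first exons of members, such as *Gm37165* to *Pcdhga7* and *Pcdhga8*, and reads could not be assigned to a strand. Against Scramble B, *Gm26672* was at 1.07 in *Fmr1* B (3.04% of all genes were called higher there). In *Zfp598* B (2.68% of all genes were called higher), *Gm26672*, *Gm18150*, *Gm10545*, *Gm37446*, *Gm37751*, *Gm53048* and *3222401L13Rik* were at 1.11 to 1.88. *Gm37751* was at 1.15 in pooled *Zfp598* KD, where 0.251% of all genes were called higher.

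Among regulators and partners, calls were few. None of 11 CTCF and cohesin genes, 14 genes of DNA methylation and silencing or 7 proteases that cleave protocadherins (ADAM10 and the gamma-secretase) was called in any comparison by edgeR. Between the *Zfp598* siRNAs 3.26% of all genes were called higher and 4.31% lower, so 0 in lists this short lies near those shares. At an unadjusted p under 0.05, 6, 4 and 1 of them were higher there and 1, 5 and 2 lower. At an adjusted p under 0.05 in edgeR, 6, 7 and 2 passed in either direction, while 2787 of all 17901 genes were higher and 3524 lower. *Ctcf* itself, named after its value was seen, lay at 58.1, 62.0 and 58.3 CPM in *Zfp598* A and 72.4, 77.3 and 75.7 CPM in *Zfp598* B, a log2 difference of 0.34 (adjusted p = 0.00231, edgeR). Of 12 tested cytoplasmic partners, *Ret*, a receptor kinase that binds alpha and gamma protocadherins, was higher in *Fmr1* B than A by 1.08 (adjusted p = 1.93e-07, edgeR), had a *Zfp598* interaction of -1.21 (adjusted p = 4.39e-06, edgeR) and was at 1.11 in *Zfp598* A against Scramble A. *Marcks*, an actin-regulating substrate of protein kinase C, had an *Fmr1* interaction of 1.10 (adjusted p = 1.50e-06, edgeR).

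Of the marker lists, *Gap43* had an *Fmr1* interaction of 1.07 (adjusted p = 0.000176, edgeR). *Col1a1* was lower in Scramble B than A (-1.47, adjusted p = 0.0118, edgeR) and in *Zfp598* B than A (-1.92, adjusted p = 0.00159, edgeR, a call not made without A2 and A3), *Pdgfra* was at 1.15 and 1.12 in *Fmr1* B and *Zfp598* B against Scramble B, and *Tfcp2l1* was higher in *Fmr1* B than A (2.96, adjusted p = 0.0101, edgeR), than in Scramble B (2.76) and, pooled, than in *Zfp598* KD (3.06, a call not made without A2 and A3), with 24.7 CPM in *Fmr1* KD B1 against at most 2.24 CPM in any other library. The part of these cells and markers in the protocadherin results was not tested. Olfactory receptors, another gene family with one-of-many promoter choice, added after the data were seen, were nearly silent, with 826 of 1193 at 0 in every library and 21 tested. Their summed level was 28.3 to 59.5 CPM in *Zfp598* A and 61.0 to 67.7 CPM in *Zfp598* B, with 59.5 CPM in A1, 40.7 in A2 and 28.3 in A3. By edgeR 6 of the 21 were called higher in *Zfp598* B than A, with a median of 0.72, against 3.26% of all genes, and with A1 as the only *Zfp598* A library 1 was called and the median was 0.17.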

How the data were processed

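RNA-seq counts of 18 libraries from N2A cells were analysed. Per the labels, the authors trimmed and checked reads with Trim Galore and FastQC, aligned them to GRCm39 with STAR, counted reads per gene with featureCounts, and used deepTools and DESeq2. The deposited values are raw counts per gene. Tool versions, annotation release, strand setting and the handling of reads on several genes are not given in the sources used here. No column was left unused. Positions, exons and symbols came from the GENCODE M39 annotation of GRCm39, which held 54749 of the 55414 gene IDs (98.8%).

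Counts were fitted with edgeR 4.0.16 (limma 3.58.1, R 4.3.3) over all 18 libraries, with TMM library sizes, a filter on low counts (filterByExpr by condition, minimum count 10, minimum total 15, leaving 17901 genes) and the quasi-likelihood test, with condition as the term for pooled comparisons and the 6 siRNA groups for the others. Genes were called at an adjusted p under 0.05 and over 2-fold. The script was tested on simulated counts. CPM used TMM sizes.

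Alternatives were DESeq2 1.42.0, its size factors in edgeR, no filter, a replicate block, an siRNA block, counts summed per siRNA, 1 condition at a time, each library left out, and, added after seeing the data, leaving out *Zfp598* KD A2 and A3 together or the most counted feature. Labels give replicate numbers but no shared day or culture, so the numbers were not taken as pairs. Same-numbered libraries correlated from -0.40 to 0.34 in their deviations from group means. Means were 0.015 and 0.011 for replicates 1 and 2. For replicate 3 all 15 pairs were positive, from 0.055 to 0.275 with a mean of 0.13, so shared handling of these libraries is not excluded.

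Members and lists were chosen with earlier results of these data known. The lists of noncoding genes inside the locus and of olfactory receptors were added after the data were seen. Named members are every C-type gene, the 5 of each cluster with the highest mean CPM, every member called in a comparison that did not choose the set, and any over 2-fold higher in both pooled KDs. Of the other lists, called genes, the targets, *Taf7* and *Slc25a2* are named, except for olfactory receptors, which are given as counts. Counts limit precision, since 16 members averaged under 50 counts, and reads without molecular identifiers are not independent molecules.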

Additional observations from a re-analysis of the deposited data

Results flagged for a closer look

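The knockdown effects of siRNA B and siRNA A differed by the interaction test in edgeR's quasi-likelihood fit for 4 members with *Fmr1* and 29 with *Zfp598*, and each pair of effects was paired by siRNA letter only. Of all genes, 7.11% were called in the *Fmr1* interaction in either direction, so the 4 of 56 members were near the share of genes at large, and 3.76% were called higher in the *Zfp598* interaction. For *Fmr1* these were *Pcdha8* (1.19 on the log2 scale), *Pcdha9* (1.26), *Pcdhac1* (1.07) and *Pcdhac2* (1.75).

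For *Zfp598* the alpha genes were *Pcdha1* (1.18), *Pcdha2* (1.95), *Pcdha3* (1.74), *Pcdha5* (1.21), *Pcdha7* (1.74), *Pcdha11* (1.74), *Pcdha12* (1.40) and *Pcdhac1* (1.23). The beta genes were *Pcdhb3* (1.72), *Pcdhb4* (1.02), *Pcdhb9* (1.89), *Pcdhb10* (2.11), *Pcdhb11* (1.13), *Pcdhb14* (1.15), *Pcdhb16* (1.21) and *Pcdhb20* (1.19). The gamma genes were *Pcdhga1* (3.33), *Pcdhga2* (2.84), *Pcdhga3* (1.98), *Pcdhga4* (1.16), *Pcdhga6* (1.46), *Pcdhgb4* (1.72), *Pcdhga8* (1.48), *Pcdhgb5* (1.19), *Pcdhga9* (2.17), *Pcdhgb6* (1.22), *Pcdhga11* (2.82), *Pcdhgb8* (1.03) and *Pcdhga12* (1.34). Both interactions contain the Scramble B minus A difference, which was itself below 0 for 52 of 56 members. They are built from differences from Scramble KD, by which the genes were chosen, so their p-values may not be free of that choice.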

How the results depend on the processing

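The counts of called members depended little on the tool or scaling outside the contrasts with Scramble KD. Calls against Scramble KD fall on the contrasts by which the genes were chosen. They are given only to show the effect of the processing and are no test of the members. In *Zfp598* KD against Scramble KD, 2 members were called, 1 without the filter on low counts, 0 with the replicate block and 0 with counts summed per siRNA. Without *Zfp598* KD A2 and A3, which leaves a pool mostly of siRNA B, 8 were called. In *Fmr1* KD against Scramble KD, 0 were called, 1 with DESeq2 and 2 without *Zfp598* KD A2 and A3. The replicate block changed no other count. Leaving out each library in turn gave 0 to 5 called for *Zfp598* KD against Scramble KD (0 without Scramble KD B1, B3 or any 1 *Zfp598* KD B library, 5 without *Zfp598* KD A1), 0 to 2 for *Fmr1* KD against Scramble KD (2 without Scramble KD A1 or A3), 0 to 1 for *Fmr1* KD against *Zfp598* KD, 0 to 2 between the Scramble siRNAs, 1 between the *Fmr1* siRNAs, 8 to 17 between the *Zfp598* siRNAs, 2 to 5 for the *Fmr1* interaction (2 without Scramble KD A1) and 26 to 34 for the *Zfp598* interaction. The members' median between *Fmr1* KD and *Zfp598* KD ran from -0.13 without *Zfp598* KD A2 to 0.0048 without *Zfp598* KD B1 and was -0.22 without A2 and A3. A fit to the *Zfp598* KD libraries alone called 11, without *Pcdhga1* and *Pcdhga3*. Over all settings, 171 counts of called members stayed within 1.5 times, 17 became larger and 13 smaller. For single called members, 1097 values kept their call, 45 lost it and 0 changed sign. Losses were mostly of *Pcdhga1*, *Pcdhga3*, *Pcdhb4*, *Pcdhb14* and *Pcdhgb8*, which have few counts or lie near 2-fold. Members with few counts are limited by depth.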
